A study of Homo sapiens with 6 samples.

Results

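The genes described here build, bind or remodel the extracellular matrix, and 43 of 46 listed genes were expressed in drug-adapted A375 or PC9 cells. The list names fibrillar collagens, other collagens, basement membrane components, matrix glycoproteins and proteoglycans, matricellular proteins, and remodelling enzymes with their inhibitors. A gene was kept when its summed unique molecular identifiers (UMIs) reached 10 counts per 1000000 UMIs (CPM) in at least 1 population of a line. The 43 genes are part of 16663 genes in either count table. In A375 all 46 listed genes were in the table and 40 reached the level. In PC9 41 listed genes were in the table and 31 reached it, and 28 genes reached it in both lines. COL6A3 and MMP14 were under 10 CPM in every population of both lines. COL1A2 was under 10 CPM in every A375 population and is not in the PC9 table. Near the limit, MMP14 reached at most 8.98 CPM, COL1A1 8.51 CPM and LAMA3 7.61 CPM in A375, and TNC 7.56 CPM in PC9. Just inside it were COL4A1 at 11.5 CPM, COL4A2 at 11.2 CPM and COL1A1 at 11.0 CPM at their highest in PC9.

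Single-cell RNA sequencing counted UMIs in 2 human cancer cell lines grown in rising doses of a kinase inhibitor. A375 melanoma cells carry the BRAF-V600E mutation and received dabrafenib, which blocks mutant BRAF, with 1 population kept at each of 30, 60, 125, 250 and 500 nM and 1, 2 and 4 µM and 1 left untreated. PC9 lung adenocarcinoma cells carry an activating EGFR deletion and received osimertinib, which blocks mutant EGFR, with populations kept at 8, 16, 32, 75, 150, 300 and 600 nM and 1.2 µM, persisters surviving 9 days of acute 1.2 µM, and a population left untreated. Each population was 1 culture, carried its own cell tag and was pooled with the others of its line, so there is no replicate and no p-value. Ranges in parentheses are 95% intervals for counting error alone.

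The extracellular matrix is the protein mesh around cells. Fibrillar collagens and fibronectin form its fibres, laminins and collagen IV its basement membrane sheets, and matricellular proteins change how cells attach to both. Melanoma cells and lung carcinoma cells make matrix themselves, while much of the matrix of a tumour comes from its fibroblasts, which cultures of a cell line lack.

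The A375 table held 8505 cells and 87053189 UMIs, and the table of PC9 had 11258 cells and 77210300 UMIs. Populations ranged between 2938641 and 21976644 UMIs in A375 and between 4908228 and 10552237 UMIs in PC9. The tables share 27 cell barcodes. Of the listed melanocyte genes, SOX10 was at 38.2 CPM in A375 cells at 4 µM and 208 CPM in untreated A375 cells, S100B at 49.9 CPM at 4 µM and 164 CPM in untreated cells, and MITF at 91.1 CPM at 4 µM and 73.4 CPM in untreated cells. The pigment gene DCT was at 31.0 CPM at 4 µM, 110.1 CPM at 30 nM and 6.55 CPM in untreated cells, while the pigment genes MLANA, PMEL and TYR stayed at or under 4.42 CPM in every population. PC9 showed 7 of 8 listed epithelial genes at 10 CPM or more, and they summed to 9130.1 CPM in cells at 1.2 µM, 10709.6 CPM in persisters and 8922 CPM in untreated cells. EPCAM was at 293 CPM at 1.2 µM, 269 CPM in persisters and 441 CPM in untreated cells, and KRT7 at 2815 CPM at 1.2 µM, 4572 CPM in persisters and 2339 CPM in untreated cells. In the text a gene is measured in a comparison when the higher population has at least 10 CPM and 20 UMIs, and it counts as higher or lower at 2-fold or more. UMIs were counted at the 3′ end of transcripts, so levels of different genes are set side by side only within this scale.

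In A375 cells at 4 µM, genes for fibronectin, periostin, fibulin-3, laminin α1 and several collagens were higher than in untreated cells, and tenascin-C, the hyaluronan-degrading protein CEMIP and collagen IV α2 were lower. Of 40 measured members, 18 were higher, against 5.97% of all 9946 genes measured. Another 5 members, 12.5% of those measured, were lower, a share close to the 9.45% of all genes. The list was chosen with earlier results of these data known, so these and later shares describe its genes and test nothing. The median log2 ratio of the members was 0.90, and that of all measured genes was -0.17. The summed level of the 40 members was 4659 CPM at 4 µM and 4584 CPM in untreated cells. Highest in untreated cells were TIMP3 at 977 CPM, TIMP1 at 655 CPM, SPARC at 462 CPM, TNC at 449.5 CPM and LAMB1 at 259 CPM.

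**Figure D1:**
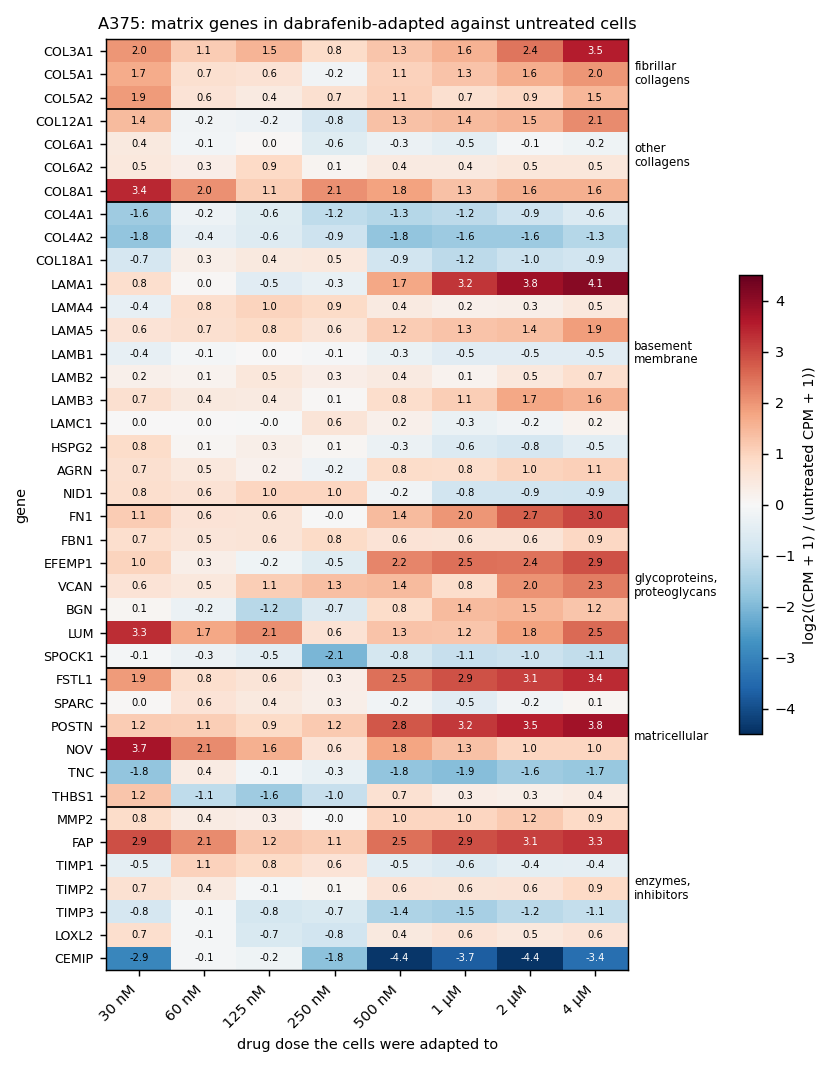
Heat map of the 40 A375 members (down, by role) against dabrafenib dose (across), coloured by log2((CPM + 1)/(untreated CPM + 1)), 1 culture per column. FN1, POSTN, LAMA1 and FSTL1 are above untreated cells most strongly from 500 nM on, NOV, LUM and COL8A1 most strongly at 30 nM, and CEMIP lies far below untreated cells at 30 nM and from 500 nM on.

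Of 5 fibrillar collagen genes in the table, 3 were measured at 4 µM, and all 3 were higher. COL5A1 and COL3A1 reached 10 CPM in this comparison only at 4 µM, so the minimum level partly set this count. COL1A1 and COL1A2 stayed under 10 CPM. COL5A2, which encodes a chain of collagen V, a regulator of fibril diameter, had 108, 409.8, 168, 142, 177, 231, 179, 205 and 309 CPM in order of dose from untreated cells to 4 µM. COL5A2 was highest at 30 nM and next at 4 µM, and untreated cells were lowest. At 4 µM it was 2.86-fold higher (2.70 to 3.03) than in untreated cells and at 30 nM 3.79-fold higher (3.59 to 4.00). Its partner chain COL5A1 had 9.92, 33.8, 17.1, 16.0, 8.82, 21.6, 25.3, 33.0 and 42.3 CPM in the same order. The peaks of COL5A1 were 4 µM, 4.26-fold higher (3.58 to 5.09) than in untreated cells, and 30 nM, 3.41-fold higher (2.82 to 4.11). COL3A1, the chain of collagen III, lies 19149 bases from COL5A2 on chromosome 2. COL3A1 had 0.637, 5.42, 2.58, 3.74, 1.89, 2.92, 3.81, 7.76 and 17.9 CPM, 28.2-fold higher (16.2 to 52.9) at 4 µM, a ratio resting on 137 UMIs at 4 µM and 14 UMIs in untreated cells.

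Among the other collagens, 2 of 4 measured genes were higher at 4 µM. COL12A1, a collagen that sits on the surface of fibrils, had 30.0, 81.3, 26.6, 25.2, 17.3, 75.7, 83.1, 88.0 and 134 CPM by dose. The highest value was at 4 µM, 4.46-fold higher (4.04 to 4.92) than in untreated cells, and cells from 60 to 250 nM were at or below the untreated level. COL8A1, a short-chain collagen of vessel walls, had 24.8, 268, 105, 54.8, 107, 88.9, 63.5, 78.3 and 77.5 CPM, with its peak at 30 nM. There it was 10.8-fold higher (9.81 to 11.9) than in untreated cells, and at 4 µM 3.12-fold higher (2.77 to 3.51). Between adapted populations, COL8A1 at 4 µM was 3.46-fold lower (3.15 to 3.80) than at 30 nM. COL6A1 and COL6A2, chains of the beaded-filament collagen VI, were within 2-fold in all 5 A375 comparisons.

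Basement membrane genes split, with 4 higher, 1 lower and 8 within 2-fold of 13 measured at 4 µM. LAMA1, the laminin α chain of early embryonic basement membranes, had 1.87, 3.85, 1.97, 1.02, 1.26, 8.62, 25.3, 39.6 and 48.3 CPM by dose. The 5 populations below 500 nM stayed under 4 CPM, and every step from 500 nM to 4 µM was higher than the last. LAMA1 at 4 µM was 25.9-fold higher (18.7 to 36.7) than in untreated cells. LAMA5, the broadly expressed epithelial α chain, had 9.19, 14.5, 15.9, 17.4, 14.4, 21.6, 23.9, 25.2 and 36.7 CPM, 3.99-fold higher (3.32 to 4.80) at 4 µM. LAMB3, a β chain of laminin-332, was low throughout, with 16.0 CPM at 4 µM against 4.69 CPM in untreated cells, 3.41-fold higher (2.60 to 4.47). AGRN, the heparan sulfate proteoglycan agrin, had 31.6 CPM at 4 µM and 14.5 CPM in untreated cells, 2.18-fold higher (1.84 to 2.59). Among the α chains, LAMA3 stayed under 10 CPM in A375, and LAMA4, a chain of vessel and muscle laminins, was within 2-fold of untreated cells at 30 nM and 4 µM. The chains LAMB1, LAMB2 and LAMC1, which laminins with different α chains share, were within 2-fold in every A375 comparison.

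COL4A1 and COL4A2 encode the chains of the main collagen IV network and are read in opposite directions from a shared stretch of chromosome 13. Their RefSeq starts lie 127 bases apart, at positions 110307157 and 110307284 of GRCh38.p14. The stretch between the starts is shown because both genes start from it, and capitals mark CCAAT boxes. It lies at chr13:110307158-110307283 and is printed on the plus strand:
COL4A1-COL4A2: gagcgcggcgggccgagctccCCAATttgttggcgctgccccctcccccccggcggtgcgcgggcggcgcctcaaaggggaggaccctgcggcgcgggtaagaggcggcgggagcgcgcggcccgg
COL4A1 had 141, 46.1, 121, 94.9, 62.5, 57.7, 61.0, 73.6 and 92.2 CPM by dose and COL4A2 249.9, 71.7, 193, 166, 130.5, 72.9, 79.1, 80.8 and 102 CPM. Both were highest in untreated cells, low at 30 nM and higher again at 60 nM. COL4A1 was between 57.7 and 92.2 CPM from 250 nM on, and COL4A2 between 72.9 and 102 CPM from 500 nM on. COL4A2 was 2.46-fold lower (2.28 to 2.65) at 4 µM and 3.48-fold lower (3.18 to 3.82) at 30 nM than in untreated cells, and COL4A1 was 3.05-fold lower (2.72 to 3.43) at 30 nM. COL4A1 at 4 µM was within 2-fold of untreated cells and 2.00-fold higher (1.75 to 2.29) than at 30 nM, which became 1.94-fold without cells of 20% or more mitochondrial UMIs. The 300-base promoter windows of RefSeq held CCAAT, on either strand, for 8 of 30 listed genes with a window and for 34.6% of all 35116 windows.

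The remaining basement membrane members differed between the low and high doses. HSPG2, the proteoglycan perlecan, had 18.2 CPM at 4 µM against 45.8 CPM at 30 nM, 2.52-fold lower (2.06 to 3.09). NID1, the linker protein nidogen-1, had 57.0, 96.7, 89.1, 111, 111, 50.7, 31.3, 30.7 and 30.2 CPM by dose. NID1 was highest from 30 to 250 nM, and at 4 µM it was 3.20-fold lower (2.75 to 3.73) than at 30 nM. COL18A1, the collagen that endostatin is cut from, stayed at or under 15.4 CPM in A375.

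Glycoprotein and proteoglycan genes held 5 higher and 1 lower of 7 measured at 4 µM. FN1, at positions 215360440 to 215436172 of chromosome 2 (GRCh38, GENCODE v29), encodes fibronectin, the adhesive glycoprotein that integrins bind. FN1 had 34.9, 78.3, 54.0, 52.7, 34.8, 95.7, 141, 231 and 286 CPM by dose. The 5 populations up to 250 nM lay between 34.8 and 78.3 CPM, and all 4 from 500 nM on were higher. At 4 µM FN1 was 8.19-fold higher (7.54 to 8.91) than in untreated cells and 3.65-fold higher (3.32 to 4.02) than at 30 nM, and at 30 nM it was 2.24-fold higher (2.01 to 2.51) than in untreated cells. The 250 bases before its RefSeq start are shown because FN1 was higher than in untreated cells both at the top dose of A375 and in the persisters of PC9. They lie at chr2:215436069-215436318 (GRCh38.p14) and read on the minus strand, with capitals on the cyclic AMP response element TGACGTCA and on CCAAT:
FN1: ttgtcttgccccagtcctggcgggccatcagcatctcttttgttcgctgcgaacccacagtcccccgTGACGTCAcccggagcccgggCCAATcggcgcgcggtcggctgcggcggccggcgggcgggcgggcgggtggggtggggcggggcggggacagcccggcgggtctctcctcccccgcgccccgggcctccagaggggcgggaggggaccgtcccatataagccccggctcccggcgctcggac
Of the 30 listed genes with a window, FN1 was the single gene holding TGACGTCA, a palindrome found in 1.85% of all windows.

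EFEMP1, the elastic fibre protein fibulin-3, had 16.7, 34.5, 20.5, 14.3, 11.2, 79.2, 96.9, 94.5 and 129 CPM by dose. It was at its lowest at 250 nM and at least 79.2 CPM at every dose above. At 4 µM EFEMP1 was 7.74-fold higher (6.86 to 8.75) than in untreated cells and 3.74-fold higher (3.25 to 4.33) than at 30 nM, and at 30 nM 2.07-fold higher (1.75 to 2.44) than in untreated cells. VCAN, the large hyaluronan-binding proteoglycan versican, had 11.7, 18.4, 16.6, 26.2, 31.1, 32.9, 21.1, 51.0 and 61.9 CPM, 5.30-fold higher (4.54 to 6.19) at 4 µM than in untreated cells. VCAN was also 3.37-fold higher (2.77 to 4.12) at 4 µM than at 30 nM. BGN, the small collagen-binding proteoglycan biglycan, had 29.3 CPM at 4 µM against 11.8 CPM in untreated cells, 2.49-fold higher (2.07 to 2.99), and was 2.31-fold higher (1.80 to 2.99) at 4 µM than at 30 nM. SPOCK1, the proteoglycan testican-1, was on the lower side, with 65.2 CPM at 4 µM, 132 CPM at 30 nM and 142 CPM in untreated cells. SPOCK1 at 4 µM was 2.18-fold lower (1.98 to 2.40) than in untreated cells, and 1.76-fold lower among the cells that the authors' cell table lists. Against 30 nM it was 2.03-fold lower (1.82 to 2.27), and 1.89-fold under trimmed mean (TMM) scaling. FBN1, the microfibril protein fibrillin-1, was within 2-fold in all 5 comparisons with all cells and total scaling, at 56.4 CPM at 4 µM against 29.3 CPM in untreated cells.

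Matricellular genes held 3 higher, 1 lower and 2 within 2-fold of 6 measured at 4 µM. POSTN, at 37562583 to 37598844 of chromosome 13, encodes periostin, which binds collagen and integrins. POSTN had 12.1, 28.2, 27.0, 22.8, 28.6, 89.7, 116, 148 and 181 CPM by dose. The step to 500 nM was the largest, and the values above it followed the dose. POSTN was 14.9-fold higher (13.1 to 17.1) at 4 µM than in untreated cells, 6.39-fold higher (5.51 to 7.46) than at 30 nM, and at 30 nM 2.33-fold higher (1.93 to 2.81) than in untreated cells. The 250 bases before its RefSeq start, chr13:37598769-37599018 on the minus strand, are shown because POSTN was higher at every dose from 500 nM on than at the dose before it, with the AP-1 match TGANTCA and the TATA box TATAAA, on either strand, in capitals:
POSTN: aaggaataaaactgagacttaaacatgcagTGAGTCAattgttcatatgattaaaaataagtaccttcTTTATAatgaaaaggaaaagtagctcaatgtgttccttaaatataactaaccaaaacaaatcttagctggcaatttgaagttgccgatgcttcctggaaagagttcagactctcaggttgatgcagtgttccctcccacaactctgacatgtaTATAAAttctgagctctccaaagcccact
TGANTCA lay in the windows of 2 of 30 listed genes and 7.71% of all windows, and TATAAA in 3 of 30 and 11.5%.

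FSTL1, at 120392293 to 120451253 of chromosome 3, encodes the secreted glycoprotein follistatin-like 1, a relative of SPARC. Its levels by dose were 12.0, 47.5, 21.1, 18.4, 15.1, 71.8, 93.7, 109 and 132 CPM. FSTL1 was high at 30 nM, between 15.1 and 21.1 CPM from 60 to 250 nM, and highest at 4 µM. The ratio to untreated cells was 11.0-fold higher (9.60 to 12.7) at 4 µM and 3.97-fold higher (3.37 to 4.68) at 30 nM, and 4 µM was 2.77-fold higher (2.45 to 3.15) than 30 nM. SPARC itself, a collagen-binding protein, was within 2-fold in all A375 comparisons, at 488 CPM at 4 µM against 462 CPM in untreated cells. TNC, the anti-adhesive glycoprotein tenascin-C, had 449.5, 131, 575, 411, 357.2, 129.8, 118, 147 and 137 CPM by dose. TNC was low at 30 nM and from 500 nM on, and within 2-fold of untreated cells in between. It was 3.29-fold lower (3.08 to 3.51) at 4 µM and 3.44-fold lower (3.21 to 3.68) at 30 nM than in untreated cells.

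The other matricellular genes peaked at 30 nM. NOV, also called CCN3, is a CCN family protein made by melanocytes, and its gene lies at 119416306 to 119424353 of chromosome 8. NOV had 6.01, 90.4, 29.3, 20.4, 9.83, 22.8, 16.5, 12.8 and 12.6 CPM by dose. It was 15.1-fold higher (12.5 to 18.3) at 30 nM and 2.09-fold higher (1.59 to 2.74) at 4 µM than in untreated cells, and 4 µM was 7.19-fold lower (5.80 to 9.01) than 30 nM. THBS1, thrombospondin-1, had 102, 243, 45.7, 33.0, 49.7, 166, 129, 124 and 132 CPM. THBS1 was highest at 30 nM, 2.39-fold higher (2.24 to 2.54) than in untreated cells, lowest from 60 to 250 nM, and within 2-fold of untreated cells at 4 µM. LUM, the corneal and dermal proteoglycan lumican at 91102629 to 91111831 of chromosome 12, had 6.69, 75.7, 24.5, 31.6, 11.0, 17.7, 17.1, 26.0 and 44.0 CPM, highest at 30 nM and second highest at 4 µM. LUM was 11.3-fold higher (9.41 to 13.7) at 30 nM and 6.58-fold higher (5.40 to 8.04) at 4 µM than in untreated cells.

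Among remodelling enzymes and inhibitors, 1 was higher, 2 were lower and 4 within 2-fold of 7 measured at 4 µM. CEMIP, at 80779343 to 80951776 of chromosome 15, takes part in the breakdown of hyaluronan. CEMIP had 157, 19.7, 147, 138, 43.0, 6.58, 11.1, 6.39 and 14.1 CPM by dose. Untreated, 60 nM and 125 nM cells were at 138 CPM or above, 250 nM cells in between, and 30 nM cells and all from 500 nM on at or under 19.7 CPM. It was 11.1-fold lower (9.17 to 13.6) at 4 µM and 7.98-fold lower (6.73 to 9.53) at 30 nM than in untreated cells. FAP, fibroblast activation protein, a membrane protease, had 1.77, 19.8, 11.2, 5.44, 4.92, 14.5, 19.9, 22.4 and 25.4 CPM. FAP was 14.3-fold higher (10.1 to 20.7) at 4 µM and 11.2-fold higher (7.78 to 16.4) at 30 nM than in untreated cells. TIMP3, a metalloproteinase inhibitor bound to the matrix, had 977, 575, 919, 569, 614, 368, 346, 421 and 463 CPM. TIMP3 was 2.11-fold lower (2.04 to 2.19) at 4 µM, and 1.97-fold lower when populations were scaled by TMM factors. MMP14 and the collagen cross-linking enzyme LOX stayed under 10 CPM, and TIMP2 was within 2-fold in all 5 comparisons, at 1.87-fold higher (1.70 to 2.05) at 4 µM than in untreated cells, and past 2-fold there when mitochondrial and ribosomal genes were kept out of the totals, with per-cell means and in the cells listed by the authors.

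Cells with more than 2 times their population's median UMIs weighed on some untreated levels. In untreated A375 these 141 cells, 7.01% of 2011, held 15.6% of all UMIs but 57.5% of POSTN, 61.0% of LAMA1, 53.0% of NOV, 46.2% of FAP and 43.7% of FSTL1 UMIs. Without such cells, at 4 µM against untreated cells, POSTN was 31.1-fold, LAMA1 60.2-fold, COL3A1 45.9-fold, FAP 24.7-fold, FSTL1 17.0-fold and NOV 4.09-fold higher and CEMIP 17.9-fold lower, and at 30 nM NOV was 35.7-fold higher. All 23 members past 2-fold at 4 µM stayed past it. FBN1 and MMP2 came past it on the higher side, and NID1 and COL18A1 on the lower side. Cells with 20% or more mitochondrial UMIs made up 10.6% of the 4 µM cells and 0.796% of untreated cells, and without them all 23 members stayed past 2-fold. The TMM factors moved the median of all genes at 4 µM to -0.07, and 22 of the 23 members stayed past 2-fold, with FBN1 and MMP2 added. With all cells and totals, FBN1 was 1.93-fold higher (1.70 to 2.18) and MMP2 1.89-fold higher (1.72 to 2.08) at 4 µM, just under the limit. The authors' table lists 455 of 705 cells at 4 µM, 478 of 691 at 30 nM and 442 of 2011 untreated cells. In the cells that the authors' table lists, LAMA1 was 104-fold, EFEMP1 11.9-fold and VCAN 7.96-fold higher at 4 µM than in untreated cells, COL3A1 15.3-fold higher, CEMIP 28.8-fold lower and TNC 6.03-fold lower. At 30 nM against untreated cells they gave NOV 26.8-fold higher and CEMIP 13.3-fold lower. LAMA1 had 41 UMIs in all 2011 untreated cells, so its ratio in the 442 listed ones rests on at most that many there.

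Some smooth muscle and fibroblast markers also differed between these populations. The 6 smooth muscle and pericyte genes in the table summed to 5057 CPM at 4 µM, 624 CPM at 30 nM and 339 CPM in untreated cells, and TAGLN and ACTA2 made up most of the sum at 4 µM. TAGLN was at 4066 CPM at 4 µM against 185 CPM in untreated cells, and ACTA2 at 921 CPM at 4 µM against 44.0 CPM in untreated cells. CSPG4, also on this list, was lower, at 22.5 CPM at 4 µM against 83.1 CPM in untreated cells. RGS5 was at 18.7 CPM at 4 µM against 22.0 CPM in untreated cells, and MYH11 stayed under 6.13 CPM in every population. Of 9 listed fibroblast genes 8 were in the table, and they summed to 111 CPM at 4 µM, 127 CPM at 30 nM and 19.7 CPM in untreated cells. The 3 that are not members, DCN, PDGFRA and PDGFRB, summed to 15.1 CPM at 4 µM, 21.8 CPM at 30 nM and 8.92 CPM in untreated cells. PDGFRB was at 12.4 CPM at 4 µM, 8.84 CPM at 30 nM and 5.82 CPM in untreated cells. DCN was at 1.83 CPM at 4 µM, 12.3 CPM at 30 nM and 1.91 CPM in untreated cells. PDGFRA was at 0.786 CPM at 4 µM, 0.713 CPM at 30 nM and 1.18 CPM in untreated cells. The part of these markers in the matrix gene differences was not tested.

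At the lowest dabrafenib dose a partly different set stood out. Of 37 measured members at 30 nM, 12 were higher than in untreated cells, against 4.44% of all genes, and 4 were lower, against 5.58%. Their median log2 ratio was 0.67, and that of all genes -0.07. The comparisons of 4 µM and of 30 nM share their untreated cells, so their calls are not independent of each other. Set directly against 30 nM, the 4 µM cells had 10 higher members of 39 measured, against 3.12% of all genes, and 5 lower, against 3.69%. The 10 were COL3A1, COL4A1, LAMA1, LAMA5, FN1, EFEMP1, VCAN, BGN, FSTL1 and POSTN, and the 5 were COL8A1, HSPG2, NID1, SPOCK1 and NOV. LAMA1 was 12.5-fold higher (8.48 to 19.3), COL3A1 3.31-fold higher (2.30 to 4.88) and LAMA5 2.52-fold higher (2.00 to 3.19) at 4 µM than at 30 nM. By level, 15 of 40 members were highest at 4 µM, 8 at 30 nM and 5 in untreated cells. Peaks of all genes were not counted, so these numbers describe the members alone.

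**Figure D2:**
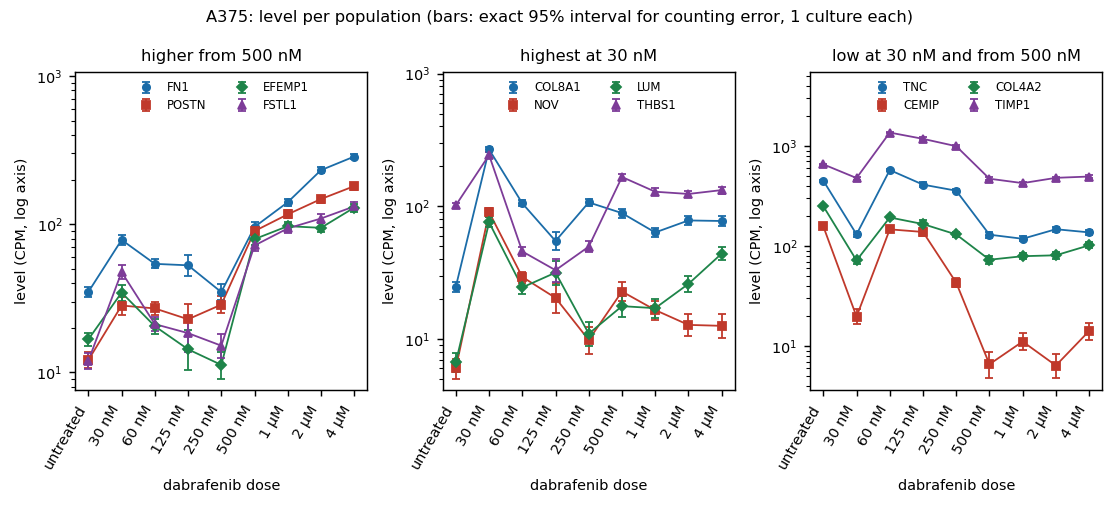
Levels in CPM (log axis) of 12 A375 members from untreated cells to 4 µM dabrafenib, 1 culture per point with the 95% counting interval as bars. FN1, POSTN, EFEMP1 and FSTL1 are highest at 4 µM, COL8A1, NOV, LUM and THBS1 at 30 nM, and TNC, CEMIP, COL4A2 and TIMP1 are low at 30 nM and from 500 nM on.

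The levels did not follow the dose evenly, and many members stood 2-fold or more apart between 30 and 60 nM and between 250 and 500 nM. These comparisons of neighbouring doses, and the genes LAMA4, COL18A1, TIMP1, MMP2 and LOXL2 named through them, were chosen after the values were seen. At 60 nM 7 of 37 measured members were higher than at 30 nM, against 4.09% of all genes, and 7 were lower, against 2.34%. CEMIP was 7.46-fold higher (6.28 to 8.92), TNC 4.40-fold higher (4.11 to 4.71), TIMP1 2.85-fold higher (2.75 to 2.95), LAMA4 2.21-fold higher (2.05 to 2.39) and COL18A1 2.19-fold higher (1.57 to 3.12) at 60 nM. On the other side THBS1 was 5.32-fold lower (4.87 to 5.83), NOV 3.08-fold lower (2.72 to 3.49), LUM 3.09-fold lower (2.70 to 3.55) and COL12A1 3.05-fold lower (2.68 to 3.48). TIMP1, a secreted metalloproteinase inhibitor, had 655, 478, 1361, 1178, 995, 471, 425, 480.3 and 495 CPM by dose, so its 3 highest populations were 60, 125 and 250 nM.

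At 500 nM 14 of 37 measured members were higher than at 250 nM, against 4.84% of all genes, and 5 were lower, against 4.87%. EFEMP1 was 7.06-fold higher (5.63 to 8.94), FSTL1 4.74-fold higher (3.88 to 5.84), COL12A1 4.38-fold higher (3.63 to 5.33), POSTN 3.14-fold higher (2.69 to 3.67), THBS1 3.35-fold higher (2.98 to 3.77) and FN1 2.75-fold higher (2.39 to 3.18). CEMIP was 6.53-fold lower (4.78 to 9.13), TNC 2.75-fold lower (2.55 to 2.97), COL18A1 2.77-fold lower (1.91 to 4.10), NID1 2.19-fold lower (1.94 to 2.49) and TIMP1 2.11-fold lower (2.03 to 2.20). The gelatinase MMP2 had 99.98 CPM at 500 nM against 49.4 CPM at 250 nM, and the cross-linking enzyme LOXL2 64.5 CPM at 500 nM against 25.7 CPM at 250 nM. For both genes the ratio was above 2, at 2.02-fold higher (1.78 to 2.30) for MMP2 and 2.51-fold higher (2.12 to 2.97) for LOXL2. The remaining genes that were higher at 500 nM were COL5A1, AGRN, BGN, SPOCK1, NOV and FAP.

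The share of cells in which a gene was detected was compared after each cell had been thinned to 4000 UMIs, which left out 80 of 705 cells at 4 µM, 88 of 691 at 30 nM and 60 of 2011 untreated cells. FN1 was detected in 58.2% at 4 µM, 20.9% at 30 nM and 9.12% of untreated cells. POSTN was found in 42.4% at 4 µM, 6.30% at 30 nM and 2.36% of untreated cells, and FSTL1 in 39.2% at 4 µM, 14.9% at 30 nM and 3.64% of untreated cells. For these genes more cells held a UMI in the population with the higher level. TNC was detected in 29.9% at 4 µM, 30.0% at 30 nM and 74.9% of untreated cells, and CEMIP in 2.24% at 4 µM, 4.15% at 30 nM and 26.8% of untreated cells. Before thinning, FN1 was detected in 81.7% of cells at 4 µM, 38.2% at 30 nM and 21.4% of untreated cells. The pool held no cell type known to lack these genes, so no background share from free RNA could be read. At 4 µM POSTN was detected in 45.9% of thinned cells with an FN1 UMI and in 37.5% of those without.

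At 30 nM, LUM and NOV were detected largely in different cells. Of 603 thinned cells, 110 held LUM, 125 held NOV and 9 held both. NOV was found in 8.18% of the cells with LUM and in 23.5% of those without. Elsewhere both genes were sparser and the direction was mixed. NOV was more frequent in cells with LUM at 60, 125 and 250 nM and 4 µM, for example 8.08% against 6.06% at 60 nM. In untreated cells and at 500 nM, 1 µM and 2 µM it was less frequent, for example 2.94% against 6.74% at 500 nM. At 30 nM COL8A1 was found in 27.3% of cells with LUM against 50.3% of cells without it, and in 68.8% of cells with NOV against 40.2% without. These cell groups were chosen after the values were seen, and their cells come from 1 culture, so they serve as a description only.

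Summed over all UMIs of the 101 cells with LUM but no NOV and the 116 cells with NOV but no LUM, other genes differed as well. COL8A1 was at 115 (97.7 to 134) CPM in the LUM cells against 580.4 (532 to 632) CPM in the NOV cells. These intervals cover counting error of pooled UMIs, not the spread between cells, and do not decide which genes differ. COL5A2 was at 247 (222 to 275) CPM in LUM cells against 671 (619 to 726) CPM in NOV cells, and SPARC at 287 (259 to 317) CPM in LUM cells against 648 (598 to 702) CPM in NOV cells. TNC was at 61.5 (49.1 to 76.1) CPM in LUM cells against 185 (158 to 215) CPM in NOV cells, so the LUM cells were the lower group for all 4 genes. They were also lower in the melanocyte gene DCT, at 8.05 (4.02 to 14.4) CPM in LUM cells against 246 (215 to 281) CPM in NOV cells, and in the neural crest gene NGFR, at 20.5 (13.6 to 29.6) CPM in LUM cells against 204 (176 to 236) CPM in NOV cells. SOX10 was likewise lower, at 68.1 CPM in LUM cells against 201 CPM in NOV cells, and S100B at 79.1 CPM against 389 CPM. MITF lay closer, at 199 (176 to 224) CPM in LUM cells and 222 (192 to 254) CPM in NOV cells. Higher in the LUM cells was, among others, FSTL1, at 65.9 (53.0 to 81.0) CPM in LUM cells against 27.0 (17.5 to 39.9) CPM in NOV cells. The smooth muscle gene TAGLN was at 690.4 (647 to 736) CPM in LUM cells against 268 (236 to 304) CPM in NOV cells. COL12A1, EFEMP1, AGRN, BGN, LAMA1, ACTA2 and KRT18 were higher in the LUM cells too. The genes named on each side are examples. The largest group, 377 cells with neither LUM nor NOV, lay between these groups, with COL8A1 at 221 CPM, DCT at 78.2 CPM and TAGLN at 451 CPM. The LUM cells had a median of 11599 UMIs and the NOV cells 6763. Without cells above 2 times the median UMIs, COL8A1 was at 90.4 CPM in the remaining 82 LUM cells and 613 CPM in the 113 NOV cells. TAGLN was then at 443 CPM in these LUM cells and 58.3 CPM in these NOV cells. Both TAGLN values lay outside the counting intervals given above for the full groups.

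In PC9 cells at 1.2 µM osimertinib, SPARC, the cross-linking enzymes LOX and LOXL2, TIMP2, TIMP3 and FSTL1 were higher than in untreated cells, and COL8A1 and 3 laminin chains were lower. Of 28 measured members 11 were higher, against 6.55% of all genes, and 4 were lower, against 4.24%. The median log2 ratio was 0.65 for the members and 0.02 for all genes. POSTN, LUM, COL1A2, COL3A1 and VCAN were not analysed in PC9, and FAP, NOV, COL5A2, COL6A3, LAMA1, BGN, TNC, MMP2, MMP14 and NID1 stayed under 10 CPM in every PC9 population. The 31 members summed to 2101 CPM at 1.2 µM, 2515 CPM in persisters and 1707 CPM in untreated cells. Highest in untreated cells were LAMB3 at 209 CPM, LAMA3 at 208 CPM, THBS1 at 135 CPM, TIMP3 at 118 CPM and LAMC1 at 115 CPM.

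**Figure D3:**
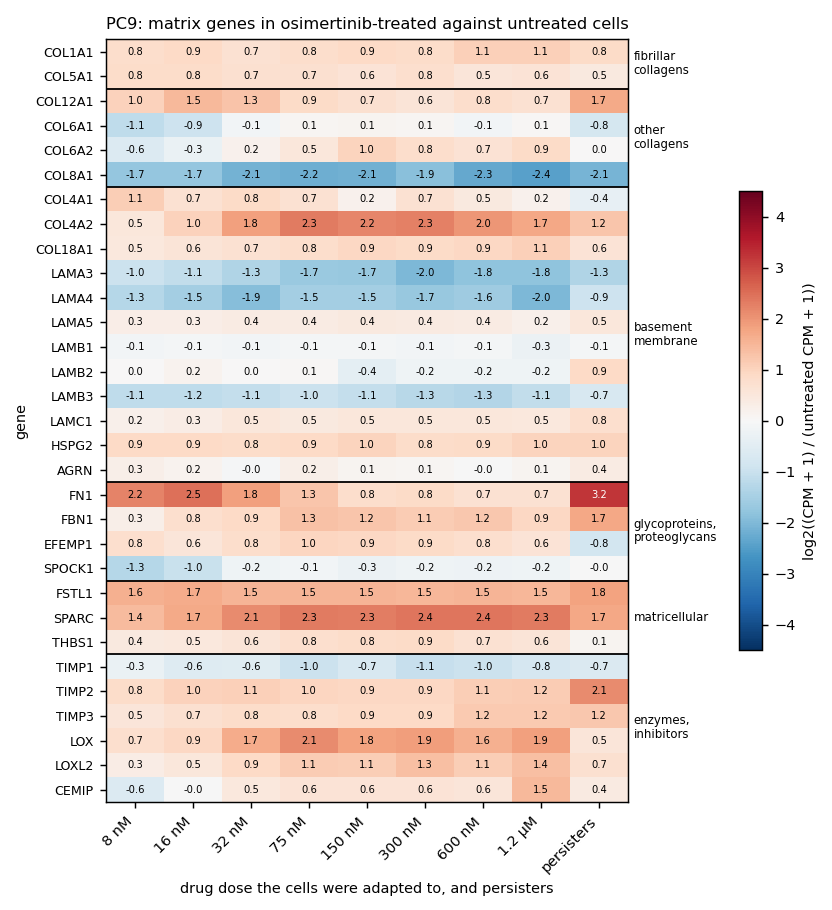
Heat map of the 31 PC9 members (down, by role) against osimertinib dose, with the persisters of acute 1.2 µM in the right column, coloured by log2((CPM + 1)/(untreated CPM + 1)), 1 culture per column. FSTL1, SPARC, TIMP2 and TIMP3 are above untreated cells in every column, COL8A1, LAMA3, LAMA4 and LAMB3 below in every column, and FN1 is highest in persisters.

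The laminin genes carried most of the lower side. LAMA3 and LAMB3 encode chains of laminin-332, the anchoring laminin of epithelia. LAMA3 had 208, 105, 95.6, 81.4, 64.2, 64.0, 50.7, 59.0, 58.7 and 81.7 CPM in order from untreated cells through 8 nM to 1.2 µM and then persisters. Every treated population was lower than untreated cells, and LAMA3 at 1.2 µM was 3.55-fold lower (3.21 to 3.95) and in persisters 2.55-fold lower (2.29 to 2.85). LAMB3 had 209, 94.5, 93.3, 98.6, 107, 98.5, 86.8, 83.4, 96.0 and 127 CPM, 2.17-fold lower (2.00 to 2.37) at 1.2 µM and 2.21-fold lower (2.02 to 2.42) at 8 nM. LAMA4 had 64.7, 26.0, 22.0, 16.5, 21.6, 21.9, 19.1, 20.6, 15.1 and 33.4 CPM, and was 4.28-fold lower (3.50 to 5.27) at 1.2 µM and 2.49-fold lower (2.10 to 2.96) at 8 nM. Persisters were 2.21-fold higher (1.73 to 2.83) for LAMA4 than adapted cells at 1.2 µM. LAMA5, LAMB1 and LAMC1 were within 2-fold in all 4 PC9 comparisons, and LAMB2, a β chain of muscle and nerve laminins, was 2.32-fold higher (1.61 to 3.38) in persisters than at 1.2 µM, with 15.7 CPM in persisters against 6.76 CPM at 1.2 µM.

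Outside the laminins, COL18A1 and HSPG2 were the basement membrane genes that were higher at 1.2 µM, and AGRN was within 2-fold in all 4 comparisons. COL18A1 had 38.4, 53.9, 58.3, 63.1, 67.4, 73.5, 71.2, 74.9, 80.8 and 59.5 CPM in the same order and was 2.11-fold higher (1.85 to 2.39) at 1.2 µM. HSPG2 had 38.2, 72.6, 72.6, 68.0, 72.0, 76.6, 69.3, 70.1, 78.4 and 77.2 CPM and was 2.05-fold higher (1.80 to 2.34) at 1.2 µM and 2.02-fold higher (1.75 to 2.33) in persisters. Both genes already stood above untreated cells at 8 nM, and neither kept 2-fold at 1.2 µM under TMM scaling, which gave 1.99 for COL18A1 and 1.94 for HSPG2. COL4A1 was at 11.5 CPM at 8 nM against 4.74 CPM in untreated cells, 2.42-fold higher (1.67 to 3.54).

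Of the collagens outside the basement membrane, COL8A1 had 23.5, 6.35, 6.29, 4.67, 4.36, 4.52, 5.70, 3.99, 3.51 and 4.69 CPM, and every treated population was lower than untreated cells. It was 6.69-fold lower (4.46 to 10.4) at 1.2 µM, 3.70-fold lower (2.65 to 5.29) at 8 nM and 5.02-fold lower (3.27 to 8.06) in persisters. COL12A1 had 13.5, 28.3, 38.5, 34.5, 25.5, 22.9, 20.7, 23.8, 22.2 and 45.6 CPM, highest in persisters, where it was 3.39-fold higher (2.74 to 4.22) than in untreated cells and 2.06-fold higher (1.68 to 2.53) than at 1.2 µM. COL12A1 at 8 nM was 2.11-fold higher (1.68 to 2.64). COL6A1 was at 13.0 CPM at 8 nM against 29.8 CPM in untreated cells, 2.29-fold lower (1.79 to 2.95), and near the untreated level from 32 nM to 1.2 µM. COL1A1, a chain of collagen I, was at 10.9 CPM at 1.2 µM against 4.64 CPM in untreated cells, 2.36-fold higher (1.63 to 3.43).

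FN1 had 2 separate high points in PC9. Its levels were 32.6, 156, 184, 118, 79.4, 57.2, 59.3, 52.6, 53.3 and 308 CPM from untreated cells through 8 nM to 1.2 µM and then persisters. It was high at 8 and 16 nM, lower at each of the next 3 doses, between 52.6 and 59.3 CPM from 150 nM to 1.2 µM, and highest in persisters. FN1 was 4.80-fold higher (4.24 to 5.44) at 8 nM and 9.45-fold higher (8.40 to 10.7) in persisters than in untreated cells, and 5.78-fold higher (5.17 to 6.48) in persisters than at 1.2 µM, while at 1.2 µM it was within 2-fold of untreated cells. FBN1 had 15.1 CPM at 1.2 µM, 27.5 CPM in persisters and 7.49 CPM in untreated cells. It was 2.02-fold higher (1.503 to 2.73) at 1.2 µM, with 1.91 under TMM scaling, and 3.67-fold higher (2.76 to 4.91) in persisters. EFEMP1 was 2.78-fold lower (2.29 to 3.39) in persisters than at 1.2 µM, with 26.3 CPM in persisters against 73.0 CPM at 1.2 µM. SPOCK1 was 2.48-fold lower (2.18 to 2.83) at 8 nM, with 44.0 CPM at 8 nM against 109 CPM in untreated cells, and was back near the untreated level from 32 nM on.

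SPARC and FSTL1 were the matricellular genes on the higher side. SPARC had 15.8, 43.8, 53.7, 72.0, 84.3, 82.2, 89.3, 88.7, 84.5 and 54.6 CPM, and it climbed with each dose up to 75 nM and then stayed between 82.2 and 89.3 CPM. SPARC was 5.34-fold higher (4.49 to 6.37) at 1.2 µM, 2.77-fold higher (2.28 to 3.37) at 8 nM and 3.45-fold higher (2.83 to 4.21) in persisters. FSTL1 had 73.2, 223, 237, 212, 215, 215, 210.0, 213, 207 and 262 CPM, a step already present at 8 nM and nearly level from there. It was 2.83-fold higher (2.60 to 3.09) at 1.2 µM, 3.05-fold higher (2.79 to 3.33) at 8 nM and 3.58-fold higher (3.28 to 3.92) in persisters. THBS1 was within 2-fold in all 4 comparisons.

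Of 9 remodelling genes in the table, 6 were measured at 1.2 µM and 5 of these were higher, against 6.55% of all genes. LOX and CEMIP reached 10 CPM in this comparison only at 1.2 µM, so the minimum level partly set this count. MMP2, MMP14 and FAP stayed under 10 CPM. TIMP2 had 56.5, 102, 116, 119, 112, 108, 108, 124, 127 and 251 CPM and was 2.25-fold higher (2.03 to 2.50) at 1.2 µM and 4.45-fold higher (4.03 to 4.92) in persisters than in untreated cells. TIMP3 had 118, 170.2, 195, 210.1, 206, 222, 221, 266, 269.6 and 274 CPM, 2.29-fold higher (2.13 to 2.46) at 1.2 µM and 2.33-fold higher (2.16 to 2.52) in persisters. LOXL2 had 22.9, 29.3, 32.7, 43.5, 52.0, 51.1, 59.7, 50.03, 60.4 and 38.7 CPM, 2.63-fold higher (2.25 to 3.09) at 1.2 µM. Against this, TIMP1 was within 2-fold in all 4 comparisons. LOX, which cross-links collagen and elastin, had 2.94, 5.58, 6.52, 11.5, 16.0, 12.9, 13.5, 11.0, 13.2 and 4.69 CPM. It was 4.51-fold higher (2.98 to 6.99) at 1.2 µM than in untreated cells and 2.83-fold lower (1.78 to 4.67) in persisters than at 1.2 µM. CEMIP stayed at or under 9.29 CPM except at 1.2 µM, where it had 17.3 CPM against 5.69 CPM in untreated cells, 3.04-fold higher (2.22 to 4.21). CEMIP in persisters was 2.23-fold lower (1.54 to 3.30) than at 1.2 µM, 1.82-fold lower with per-cell means and 4.27-fold lower in the cells listed by the authors.

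**Figure D4:**
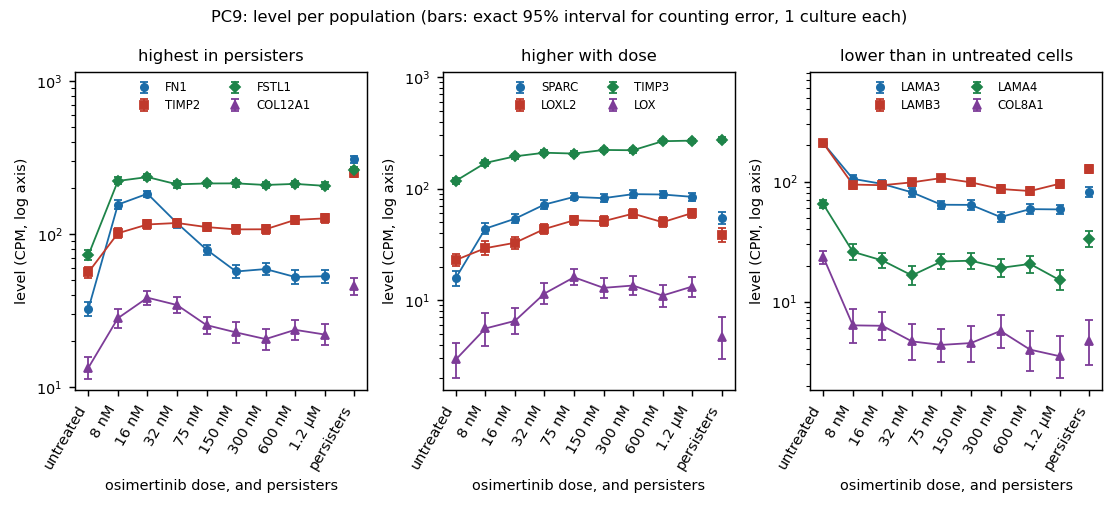
Levels in CPM (log axis) of 12 PC9 members from untreated cells to 1.2 µM osimertinib, with persisters at the right, 1 culture per point with the 95% counting interval as bars. FN1, TIMP2, FSTL1 and COL12A1 are highest in persisters, SPARC, LOXL2, TIMP3 and LOX climb over the low doses, and LAMA3, LAMB3, LAMA4 and COL8A1 lie below untreated cells throughout.

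Counted over all members, 8 nM cells had 5 higher of 24 measured, against 3.54% of all genes, and 5 lower, against 1.94%. Persisters had 8 higher of 25 measured than untreated cells, against 11.4% of all genes, and 2 lower, against 10.2%. The member median was 0.49 in persisters and 0.39 at 8 nM, with -0.04 and 0.00 over all genes. Set against adapted cells at the same 1.2 µM, persisters had 4 higher of 28 measured, COL12A1, LAMA4, LAMB2 and FN1, against 4.42% of all genes, and 3 lower, EFEMP1, LOX and CEMIP, against 4.86%. The 2 lower genes in persisters, 8% of those measured, are no larger a share than among all genes. The comparisons with untreated cells share those cells, and so do the values set side by side from them. By level, 10 of 31 members were highest in persisters, 7 in untreated cells and 4 at 1.2 µM. Here too the peaks of all genes were not counted, so the numbers are no trait of the members.

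The authors' cell table lists 37.4% of PC9 cells, in unequal shares of the populations. These are 395 of 1072 cells at 1.2 µM, 329 of 989 at 8 nM, 673 of 823 persisters and 169 of 1315 untreated cells. Values in the listed cells alone differed for some genes. At 1.2 µM against untreated cells, HSPG2 was there 1.18-fold, FBN1 1.26-fold, LOXL2 1.81-fold, SPARC 10.4-fold and CEMIP 6.19-fold higher, and COL8A1 28.3-fold lower. COL8A1 had 26 UMIs in all 1072 cells at 1.2 µM, so its ratio in listed cells rests on at most that many there. At 8 nM against untreated cells COL12A1 was 1.66-fold, COL4A1 1.51-fold and SPARC 5.65-fold higher, and COL6A1 1.99-fold and COL8A1 6.37-fold lower. Persisters against untreated cells gave 1.22-fold for HSPG2, 2.02-fold for FBN1 and 7.30-fold for SPARC, and against 1.2 µM cells 1.67-fold for LAMA4 and 1.99-fold for LAMB2, all on the higher side. The smooth muscle list, 6 of 7 genes in the table, summed to 257 CPM at 1.2 µM, 87.0 CPM in persisters and 44.8 CPM in untreated cells. TAGLN alone was at 227 CPM at 1.2 µM, 64.8 CPM in persisters and 21.7 CPM in untreated cells. Of the 3 fibroblast genes in the table COL1A1 and FAP are members, and the other, PDGFRB, was at 0.541 CPM at 1.2 µM, 0.611 CPM in persisters and without a UMI in untreated cells, where 3 counts would be 0.284 CPM. The part of the smooth muscle genes in the results was not tested.

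The share of PC9 cells in which these genes were detected differed in the same directions as their levels. After thinning to 4000 UMIs, which left out 175 of 823 persisters, FN1 was detected in 17.3% of cells at 1.2 µM, 53.7% of persisters and 9.55% of untreated cells. FSTL1 was found in 54.6% of cells at 1.2 µM, 61.3% of persisters and 25.9% of untreated cells, and SPARC in 28.7% of cells at 1.2 µM, 19.9% of persisters and 5.75% of untreated cells. LAMA3 was detected in 18.2% at 1.2 µM, 25.2% of persisters and 53.4% of untreated cells. Before thinning FN1 was detected in 26.6% at 1.2 µM, 61.8% of persisters and 19.7% of untreated cells. Among persisters FSTL1 was found in 65.8% of thinned cells with an FN1 UMI and 56.0% of those without.

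Of 25 members measured in both top-dose comparisons, FSTL1 was the single gene higher in both, which is 11.1% of the 9 members higher in A375 and 11.1% of the 9 higher in PC9 among these 25. No member was lower in both, of 3 lower in each line. Over all 8490 genes measured in both comparisons, 103 were higher in both, 29.9% of 345 higher in A375 and 23.8% of 433 higher in PC9, and 62 were lower in both, 9.06% of 684 lower in A375 and 23.0% of 270 lower in PC9. The count of shared higher genes depends on the 2-fold limit and on the scaling, as given in the closing section. COL8A1, LAMB3, TIMP3 and CEMIP were past 2-fold in opposite directions, which was not counted over all genes. COL8A1 was 3.12-fold higher (2.77 to 3.51) in A375 at 4 µM than in its untreated cells and 6.69-fold lower (4.46 to 10.4) in PC9 at 1.2 µM, and LAMB3 3.41-fold higher (2.60 to 4.47) in A375 and 2.17-fold lower (2.00 to 2.37) in PC9. TIMP3 and CEMIP were lower in A375 and higher in PC9, TIMP3 in A375 without reaching 2-fold under TMM scaling. FN1 was highest at the top dose in A375 and in persisters in PC9.

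**Figure D5:**
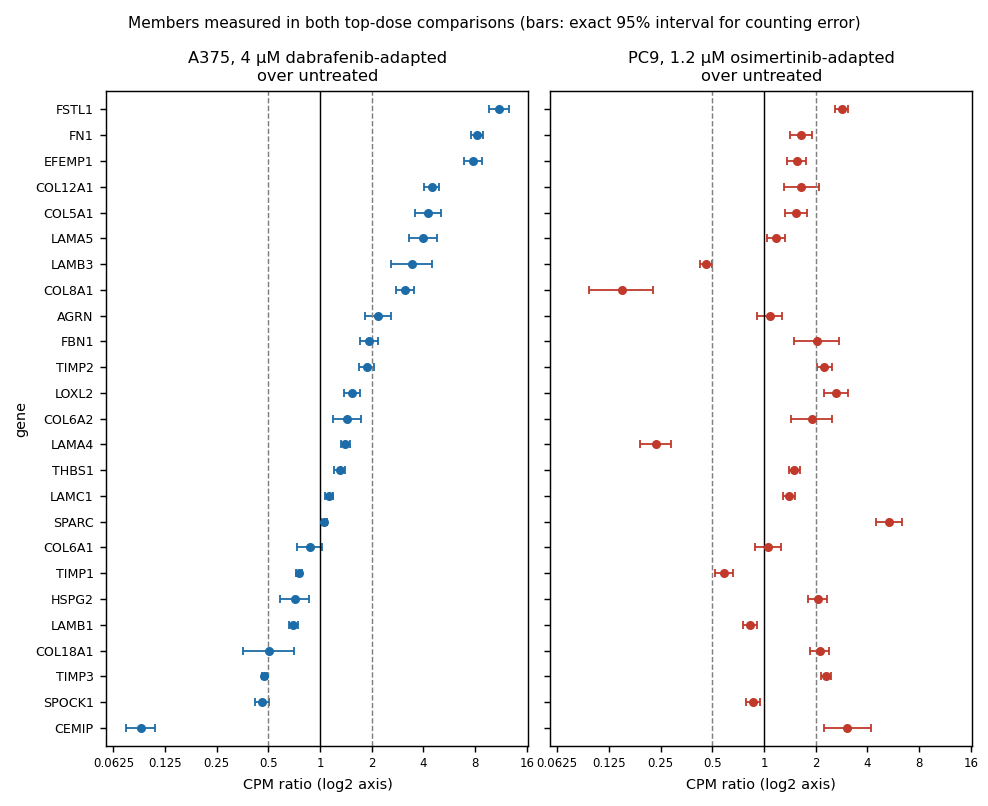
Ratio of CPM at the top dose to untreated cells (log axis) for the 25 members measured in both lines, A375 at 4 µM on the left and PC9 at 1.2 µM on the right, with 95% counting intervals as bars and dashed lines at 0.5 and 2. FSTL1 is above 2 in both panels, and COL8A1, LAMB3, TIMP3 and CEMIP lie on opposite sides.

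Other matrix genes, from 3 further lists, were counted in the same way. Of all genes measured in A375 at 4 µM against untreated cells, 5.97% were higher and 9.45% lower. In A375 at 4 µM, 33 of 102 other structural matrix genes in the table were measured, and 11 were higher and 6 lower, with a median log2 ratio of 0.43. SVEP1, a large cell adhesion protein, was 14.2-fold higher (12.8 to 15.8), and EDIL3, an integrin-binding protein, 9.15-fold higher (8.34 to 10.0). On the lower side COL9A3, a chain of the cartilage collagen IX, was 3.12-fold lower (2.85 to 3.42), and HAPLN1, a hyaluronan link protein, 2.02-fold lower (1.88 to 2.17). Of 33 other remodelling genes measured, 6 were higher and 7 lower, including TLL1, a procollagen protease, which was 14.8-fold higher (12.6 to 17.5), and SERPINE2, a protease inhibitor, which was 5.61-fold lower (5.45 to 5.77). Collagen-modifying enzymes held 2 higher and 0 lower of 23 measured, with the prolyl hydroxylase P3H2 5.61-fold higher (4.88 to 6.45).

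In PC9 at 1.2 µM, 15 of 34 measured other structural genes were higher and 5 lower, with a median log2 ratio of 0.83. Of all genes measured in this comparison, 6.55% were higher and 4.24% lower. The collagen IV chains COL4A4 and COL4A3 differed most, COL4A4 being 14.3-fold higher (11.5 to 18.1) and COL4A3 12.2-fold higher (9.55 to 15.7). MATN2, the filament protein matrilin-2, was 7.28-fold higher (6.23 to 8.54). Remodelling genes held 4 higher and 9 lower of 30 measured, with the cross-linking enzyme TGM2 6.80-fold lower (6.14 to 7.56) and the urokinase gene PLAU 2.99-fold lower (2.49 to 3.63). Of collagen-modifying enzymes PLOD2, a lysyl hydroxylase, was 4.21-fold higher (3.86 to 4.58). Persisters had 19 higher and 3 lower of 35 measured structural genes, with a median of 1.04. Of all genes, 11.4% were higher and 10.2% lower in persisters than in untreated cells.

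Exons of some members overlap other genes in the tables, so part of their counts may be shared. On the same strand these are TIMP2 with CEP295NL and LOXL2 with ENTPD4. On opposite strands they are COL18A1 with SLC19A1, LAMA5 with ADRM1, LAMB1 with DLD, HSPG2 with LDLRAD2, TNC with DEC1, THBS1 with FSIP1, LOX with SRFBP1 and CEMIP with MESD, and whether counting used the strand is not given in the sources used here.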

How the data were processed

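Raw counts of UMIs for each gene in each cell were deposited by the authors, per the labels' description, from 3′ libraries of CellPlex-tagged cells pooled by line. Cell Ranger 7.0.0 and the GRCh38 build were used, per the submitters' processing notes. The A375 pool was sequenced in 2 runs that the cell names do not tell apart. The authors' cell tables give the percent of mitochondrial UMIs of 5059 A375 cells (59.5%) and 4208 PC9 cells (37.4%), per the file headers. The names of these cell tables carry the label g1, and how the cells were chosen is not stated otherwise. Cells were assigned to populations by the suffix of their names, T05 being read as T0500.

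The UMIs of a population were added up and scaled to its total as CPM. A fold is the quotient of 2 CPM values with an exact conditional binomial 95% interval, levels carry exact Poisson intervals, and log2 ratios use CPM + 1, which understates differences of low genes. Intervals cover counting error only, and a gene without UMIs could still be present at up to 3 counts of the total. With 1 culture per population no model was fitted. All cells were used, and no doublet caller was run. Shares of cells came from cells thinned to 4000 UMIs by random draws without replacement. The ratios and intervals were tested on simulated data.

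Members and lists were chosen with earlier results of these data known. Named are all members at 2-fold or more in any of 7 comparisons, the 5 highest in untreated cells, and up to 4 genes per direction of 3 other matrix lists. Another 2 comparisons, of neighbouring doses, were chosen after seeing the values by dose. Alternatives changed the minimum (none, or 50 CPM), the threshold (3-fold), the pseudocount (5 CPM), the scaling (TMM factors, or totals without mitochondrial and ribosomal protein genes), the weight of cells (mean CPM per cell) and the cells used. Positions came from GENCODE v29 and promoter windows from RefSeq GRCh38.p14, matched by symbol for 30 of 46 genes. Calculations used R 4.3.3 with edgeR 4.0.16 (TMM factors) and Python 3.11.15 with pandas 2.3.3, numpy 2.4.6 and scipy 1.17.1.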

Additional observations from a re-analysis of the deposited data

Results flagged for a closer look

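Of the 25 members measured in both lines, 4 passed 2-fold in opposite directions at the top doses, each set against the untreated cells of its own line. COL8A1 had a log2 ratio of 1.60 in A375 at 4 µM and -2.44 in PC9 at 1.2 µM, and LAMB3 had 1.58 in A375 and -1.11 in PC9. TIMP3 had -1.08 in A375 and 1.19 in PC9, and CEMIP -3.38 in A375 and 1.45 in PC9. Opposite directions were not counted over all genes measured in both lines, so the count has no background beside it. TIMP3 in A375 was 1.97-fold lower under TMM scaling. Without mitochondrial and ribosomal protein genes in the totals it was 1.96-fold lower. With 1 culture per population the difference between the lines was not tested.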

How the results depend on the processing

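No member past 2-fold changed direction. The median at 500 nM against 250 nM changed sign, from 0.29 with all measured members to -0.11 with a minimum of 50 CPM. Of 2655 log2 ratios of single members under alternatives, 2312 moved by less than their counting interval and 343 by more, and of 261 counts and medians 215 stayed close and 46 moved. With no minimum, the A375 median at 4 µM was 0.68, 8 members were lower at 4 µM than at 30 nM, PC9 had 18 higher at 1.2 µM and 8 lower at 8 nM, and persisters had 13 higher and 4 lower than untreated cells and 7 lower than 1.2 µM cells. With a minimum of 50 CPM, A375 had 8 higher (median 0.48) at 4 µM and 7 higher (0.36) at 30 nM against untreated cells, 6 higher at 4 µM against 30 nM, and 9 higher and 3 lower at 500 nM against 250 nM. At that minimum PC9 had 7 higher at 1.2 µM and 2 higher and 3 lower at 8 nM, and persisters had 1 lower than untreated cells and 1 higher and 1 lower than 1.2 µM cells. At 3-fold, A375 had 2 lower at 4 µM and 7 higher at 30 nM, 6 higher and 3 lower at 4 µM against 30 nM, 2 higher and 4 lower at 60 nM against 30 nM, and 6 higher and 1 lower at 500 nM against 250 nM. PC9 then had 3 higher at 1.2 µM and 2 higher and 1 lower at 8 nM, and persisters had 1 lower than untreated cells and 1 higher and 0 lower than 1.2 µM cells. The mean of per-cell CPM gave a median of 1.08 at 4 µM in A375. In the cells of the authors' tables, the PC9 median at 1.2 µM was 0.43, and persisters had 4 lower than untreated cells and 2 higher than 1.2 µM cells. Members higher in both lines numbered 6 with no minimum (1 lower in both), 0 at 3-fold, 3 without mitochondrial and ribosomal genes in the totals, with per-cell means and in listed cells, and 2 without cells above 2 times the median UMIs. These shared counts and the neighbouring-dose comparisons were chosen after seeing the data. Of 134 shares of cells, 126 moved out of their interval when cells were thinned to 2000 UMIs, which lowers every share by construction. The causes were not tested. No paired analysis was possible because each population was 1 culture with no replicate number. COL3A1 and LAMA1 rest on few UMIs in untreated A375 cells, and genes near 10 CPM are limited by depth.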
